A study of Homo sapiens with 3 samples.

Results

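The MX and GBP proteins are large GTPases of the antiviral response, and MX1, MX2, GBP1 and GBP2 were followed here across the 3 arrays of the series. The members were chosen by gene symbol: every probe set that the array's annotation assigns to 1 of these 4 genes was taken, which gave 5 of 22277 probe sets and 4 of 11963 named genes. Their levels in these samples were already known when the list was drawn up, so their values are a description and carry no test. HEK293T cells, a line from human embryonic kidney, had been transfected with Fugene HD in 6-well plates. Each of the 3 was given dCas9VP160, in which a Cas9 that cannot cut DNA carries an activation domain, so no sample shows cells without the activator. The guide RNA differed between samples. One sample had sgTetOmut, labelled as a mutant form of sgTetO without a target, another had sgTetO, labelled as directed to the TetO promoter, and the last had sgIL1RN1~3, labelled as directed to the IL1RN promoter. There was 1 array per guide, so no value has a replicate error, no p-value is given, and nothing separates a guide from its array.

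Type I interferons bind a receptor whose kinases activate a transcription factor complex that holds IRF9. That complex binds the interferon-stimulated response element, ISRE, in promoters. Interferon gamma acts through another promoter element, GAS. The MX genes are classic targets of the first route. Their products, dynamin-like GTPases, assemble into rings: MX1, or MxA, blocks influenza and other RNA viruses in the cytoplasm, and MX2, or MxB, sits at nuclear pores and restricts HIV-1 and herpesviruses. The GBP genes are known above all as targets of interferon gamma and also answer to type I interferon. GBP1 and GBP2 carry a lipid anchor at their carboxyl terminus and coat bacteria, parasite vacuoles and viral replication sites.

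Each value is a log2 intensity as deposited, and 1 log2 unit is 2-fold. As a scale for background, the 27 probe sets on the chip for transcripts of the bacterium Bacillus subtilis were used. The highest of them was 3.29 on the sgTetOmut array and 3.40 on each of the others, and a set at or under it was taken as not above background there. The median of all named genes was 6.19 on sgTetOmut, 6.19 on sgTetO and 6.23 on sgIL1RN1~3, and between 76.0% and 77.8% of genes lay above the Bacillus limit. IL1RN, the gene that the sgIL1RN1~3 guides target, had 7.01 on its own array against 2.28 with sgTetO and 2.23 with sgTetOmut. Over all genes, differences from sgTetOmut had an SD of 0.22 for sgTetO and 0.28 for sgIL1RN1~3, and the difference between those 2 arrays had an SD of 0.26. The labelled cell type was checked on 7 measured markers of HEK293T cells, all of them above background on every array. The highest on sgTetOmut, NEFL, read 10.06, 10.16 and 10.42 with sgTetOmut, sgTetO and sgIL1RN1~3. The lowest, KRT8, read 3.95, 3.95 and 4.32 in the same order, near the Bacillus limit.

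Of the MX genes, MX2 was higher with sgTetOmut. Its probe set, 204994_at, read 5.99 with sgTetOmut, 3.35 with sgTetO and 3.31 with sgIL1RN1~3. The set was 2.71 log2 units above the Bacillus limit on the sgTetOmut array and under that limit on both others. The differences were -2.64 for sgTetO and -2.69 for sgIL1RN1~3, each relative to sgTetOmut. Because the lower values were at background, the fold is a bound, and MX2 was at least 6.02-fold higher with sgTetOmut than on either other array. Adding 16 to the linear values, which draws low values together, gave -1.61 and -1.62. In RNA from whole cultures, fewer cells with a transcript and less transcript per cell cannot be told apart.

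MX1, the neighbour of MX2 on the chromosome, was 1.41-fold higher with sgTetOmut than with sgTetO by its 1 probe set. The set, 202086_at, read 4.03 with sgTetOmut, 3.53 with sgTetO and 3.57 with sgIL1RN1~3. It lay above the Bacillus limit on all 3 arrays, by 0.74, 0.13 and 0.16 log2 units in the same order. sgTetOmut was again the highest, with differences of -0.50 for sgTetO and -0.46 for sgIL1RN1~3, under the 2-fold limit. With 16 added to the linear values they were -0.23 and -0.21.

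GBP1 was higher with sgTetOmut by 1 of its 2 probe sets. The set 202270_at read 5.95 with sgTetOmut, 3.71 with sgTetO and 3.14 with sgIL1RN1~3. It was above background with sgTetOmut and, by 0.31 log2 units, with sgTetO, and not above background with sgIL1RN1~3. GBP1 was thus 4.74-fold higher with sgTetOmut than with sgTetO, and at least 5.86-fold higher than with sgIL1RN1~3. The measured differences were -2.24 and -2.81.

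The second set of GBP1, 202269_x_at, did not show this. It read 2.90, 2.59 and 2.93 with sgTetOmut, sgTetO and sgIL1RN1~3, not above background on any array, and was highest with sgIL1RN1~3. The ending of its name marks a set whose probes can also match other transcripts. The mean of both sets gave differences of -1.27 for sgTetO and -1.39 for sgIL1RN1~3, still past 1 log2 unit. Why the sets differ was not tested. The genes that shared this pattern and had more than 1 set were read in the same way, GBP1 included. With values under the Bacillus limit raised to it, 44 genes were at least 2-fold lower on both other arrays than on sgTetOmut. Of these, 12 had further sets, 17 in all, and GBP1 with its set 202269_x_at is among them. Of the 17, 15 were highest on sgTetOmut, which 202269_x_at was not. Of the same 17, 7 were also at least 2-fold lower on both arrays. Another 5, with 202269_x_at among them, were not above background on any array. The other 5 were above it on some array but under the 2-fold limit. The 44 genes were picked by their sgTetOmut values, so this tally is a description and carries no test.

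GBP2 was not above background on any array. Its set, 202748_at, read 2.72 with sgTetOmut, 2.30 with sgTetO and 2.49 with sgIL1RN1~3, on sgTetOmut 0.57 log2 units under the Bacillus limit and further under it on the others. No fold or direction is read from it. The values do not say that the gene was silent, only that this set did not detect it.

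**Figure D1:**
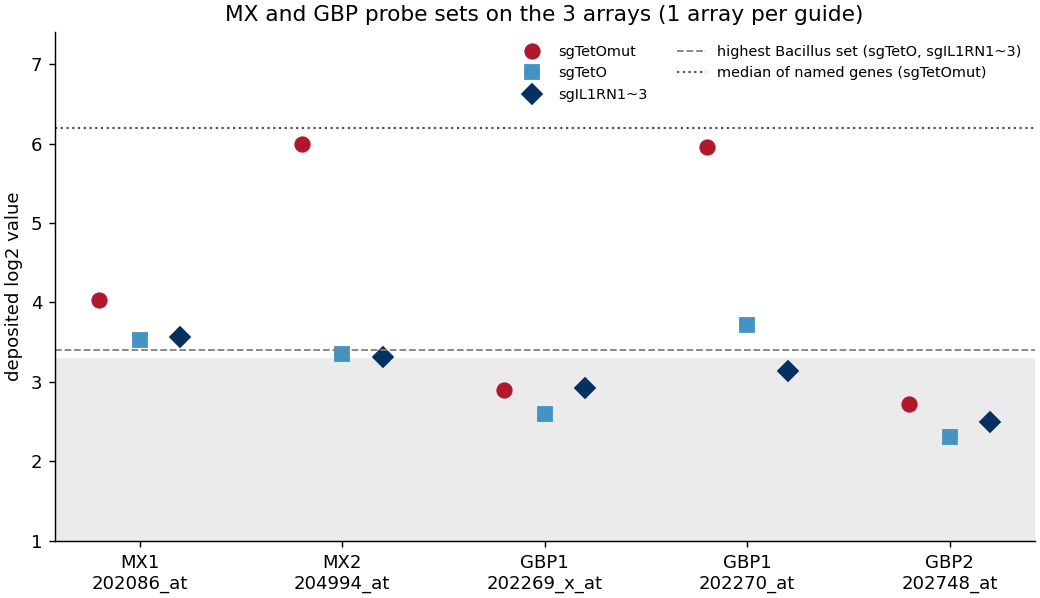
Deposited log2 values (vertical axis) of the 5 MX and GBP probe sets, 1 point per array, with circles for sgTetOmut, squares for sgTetO and diamonds for sgIL1RN1~3. The dashed line is the highest Bacillus set on sgTetO and sgIL1RN1~3 (3.40), the grey area lies under that of sgTetOmut (3.29) and the dotted line is the gene median on sgTetOmut (6.19). MX2 and the GBP1 set 202270_at stand near 6 on sgTetOmut and near the dashed line on the others, MX1 stands just above it throughout, and GBP2 and the second GBP1 set stay below it.

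The promoters are shown because the response is known to run through sequence elements there. RefSeq windows on GRCh38.p14, from 250 bases before to 50 after a start site, were at hand for MX1, with 3 start sites, and for GBP1. The windows were searched on both strands for the letters GAAANNGAAA, the core of an ISRE, and for GAAANGAAA, the same repeats with 1 base between them. They were also searched for TTCNNNGAA, 1 form of the core of a GAS. The core GAAANNGAAA was held by 3.57% of all 35116 promoter windows, GAAANGAAA by 3.12% and TTCNNNGAA by 7.66%. Each window is printed 5′ to 3′ on the strand of its gene. Capitals mark matches to either form of the ISRE letters on either strand, and positions count from the start site as 0.
GBP1, chr1:89065159-89065458, minus strand: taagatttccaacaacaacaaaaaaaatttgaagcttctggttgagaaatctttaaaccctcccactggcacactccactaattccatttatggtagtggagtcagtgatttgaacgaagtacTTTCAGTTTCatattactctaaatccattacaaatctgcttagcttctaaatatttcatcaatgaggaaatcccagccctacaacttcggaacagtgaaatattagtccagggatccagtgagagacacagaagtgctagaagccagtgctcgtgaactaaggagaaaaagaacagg
MX1, first start, chr21:41420308-41420607, plus strand: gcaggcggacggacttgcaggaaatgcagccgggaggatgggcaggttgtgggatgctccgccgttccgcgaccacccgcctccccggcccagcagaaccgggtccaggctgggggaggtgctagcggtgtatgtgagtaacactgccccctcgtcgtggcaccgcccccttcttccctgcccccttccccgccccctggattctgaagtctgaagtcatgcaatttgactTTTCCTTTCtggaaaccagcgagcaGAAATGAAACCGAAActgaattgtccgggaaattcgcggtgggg
MX1, second start, chr21:41425989-41426288, plus strand: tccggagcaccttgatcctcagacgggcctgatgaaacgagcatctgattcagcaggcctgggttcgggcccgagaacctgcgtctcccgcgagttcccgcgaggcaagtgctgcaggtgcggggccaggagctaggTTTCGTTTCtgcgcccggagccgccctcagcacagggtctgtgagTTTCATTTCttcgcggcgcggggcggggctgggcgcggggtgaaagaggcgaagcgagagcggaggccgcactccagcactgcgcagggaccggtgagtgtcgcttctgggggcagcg
MX1, last start, chr21:41431800-41432099, plus strand: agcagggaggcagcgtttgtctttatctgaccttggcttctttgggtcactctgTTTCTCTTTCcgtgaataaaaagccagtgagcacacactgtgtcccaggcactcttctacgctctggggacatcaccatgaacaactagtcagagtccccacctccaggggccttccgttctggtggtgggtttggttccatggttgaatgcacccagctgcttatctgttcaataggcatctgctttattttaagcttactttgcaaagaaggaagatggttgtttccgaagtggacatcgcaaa

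The GBP1 window held 1 match, TTTCAGTTTC on the reverse strand, at -127 to -118. At the first MX1 start the match GAAACCGAAA lay at 11 to 20, overlapped by GAAATGAAA at 6 to 14, with TTTCCTTTC at -19 to -11. The next MX1 start held only the form with 1 base between the repeats, TTTCGTTTC at -113 to -105 and TTTCATTTC at -68 to -60. The last MX1 start held TTTCTCTTTC at -196 to -187, overlapped by the 1 match to TTCNNNGAA in these 4 windows, TTCCGTGAA at -189 to -181. Other forms of the GAS letters were not searched, so no window is read as lacking a GAS. A match describes letters in the window and does not show that a factor bound there.

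**Figure D2:**
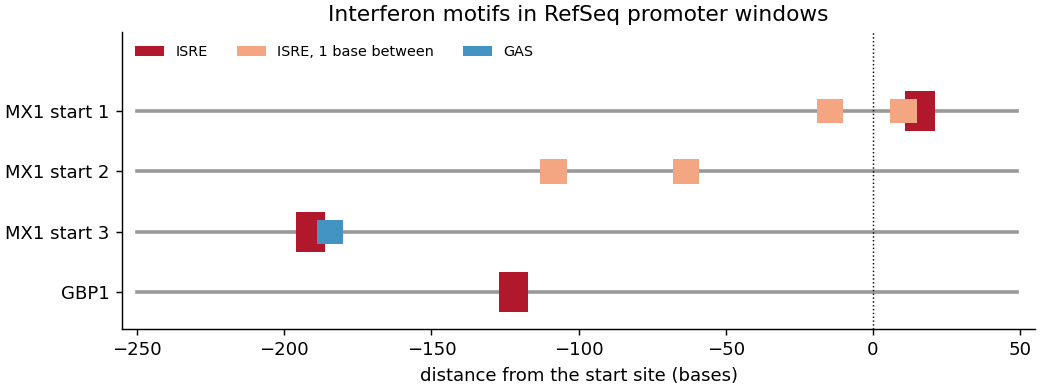
Matches to GAAANNGAAA (ISRE, tall dark bars), GAAANGAAA (ISRE, 1 base between, short light bars) and TTCNNNGAA (GAS, short blue bars) in the 4 promoter windows, by distance in bases from the start site (horizontal axis, dotted line at 0). GBP1 has 1 match 127 bases before its start, and the 3 MX1 starts have between 2 and 3 matches each.

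The next comparison asks how common such differences were. The rule that a gene lie at least 2-fold lower on both other arrays than on sgTetOmut was first applied with a minimum level, the higher value having to reach the gene median. This rule counted 35 of 11963 genes (0.293%) and 0 of the 4 members. MX2 and GBP1 missed only the level, by 0.20 and 0.24 log2 units on sgTetOmut. Without a minimum level, and with values under the Bacillus limit raised to it, 44 genes (0.368%) were counted, among them 2 of the 4 members, MX2 and GBP1. At the level of probe sets the share was 53 of 19070 (0.278%), with 2 of the 5 member sets. In the opposite direction, higher on both other arrays, it was 0 genes (0%).

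Of the 44 genes, MX2, GBP1 and 7 others were under the gene median on sgTetOmut. They were 9 of the 3324 genes between the Bacillus limit and the median on that array (0.271%). The 7, named after their values were seen, were IFNB1, which encodes interferon beta, the chemokines CXCL10, CXCL11 and CCL5, the translation inhibitor IFIT2, the virus tether BST2 and RASGRP3, an activator of Ras. CXCL10 read 6.12 with sgTetOmut and 3.23 on both others, where it was not above background. CCL5 read 5.36, 3.83 and 3.88 with sgTetOmut, sgTetO and sgIL1RN1~3. RASGRP3 read 5.79, 4.25 and 3.88 in the same order. All comparisons with sgTetOmut share that 1 array, so they are not independent of each other.

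The members were also compared between sgIL1RN1~3 and sgTetO, which leaves the sgTetOmut array out. All 5 member sets differed by under 1 log2 unit. The GBP1 set 202270_at was 0.57 lower with sgIL1RN1~3, or at least 1.24-fold, since it was not above background there. The mean of both GBP1 sets gave -0.12. The other GBP1 set and GBP2 were under the Bacillus limit on both arrays. MX2 was under the limit on both as well. MX1 differed by 0.04, and under quantile scaling the sign at MX1 turned, at -0.0013. Over all genes, with the same bound, 0.109% were at least 2-fold lower with sgIL1RN1~3 than with sgTetO and 0.092% at least 2-fold higher, and 0 of the 4 members were in either group. The chip's sets for the 5′ ends of ACTB and GAPDH, a sign of RNA integrity and labelling, were 0.95 and 0.84 higher on sgIL1RN1~3 than on sgTetO, against -0.13 and -0.18 for sgTetO relative to sgTetOmut. For sgIL1RN1~3 relative to sgTetOmut, where MX2 and GBP1 differed by -2.69 and -2.81, these sets were 0.82 and 0.66 higher. Their part in the MX2 and GBP1 differences was not tested.

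**Figure D3:**
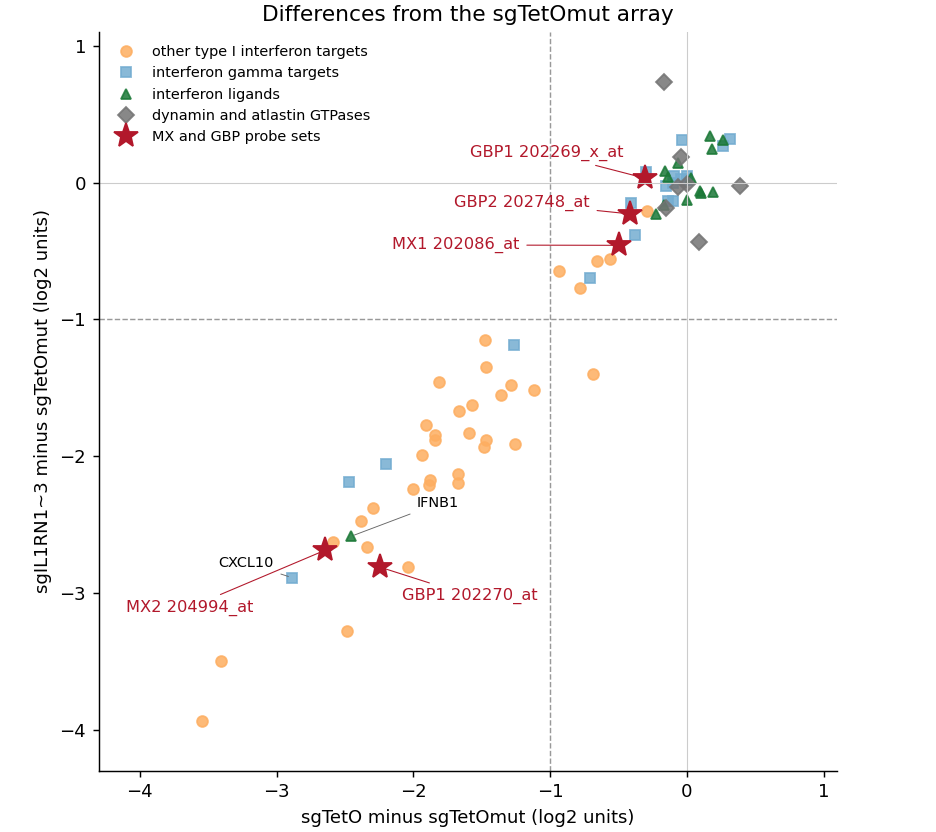
Each point is a probe set or gene, placed by its log2 difference from sgTetOmut on the sgTetO array (horizontal axis) and on the sgIL1RN1~3 array (vertical axis), and stars are the 5 MX and GBP probe sets. Dashed lines mark 1 log2 unit, and both axes share the sgTetOmut array. MX2 (-2.64, -2.69) and the GBP1 set 202270_at (-2.24, -2.81) lie among the interferon targets furthest down, while MX1, GBP2 and the second GBP1 set lie above -1 on both axes. Values at background are plotted as read. This holds for MX2 on sgTetO and sgIL1RN1~3, for the GBP1 set 202270_at on sgIL1RN1~3, and for GBP2 and the second GBP1 set on all 3 arrays.

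The interferon pathway, of which the members are known targets, was then followed from ligand to target. The gene lists were drawn up with earlier results of these data known, and whether the pathway drove the members here was not tested. In the counts that follow, lower means at least 2-fold lower on both other arrays than on sgTetOmut, with the Bacillus bound, and the background is the 0.368% of all genes given above. Of 14 measured interferon ligand genes, 1 was lower, IFNB1. It read 5.98 with sgTetOmut, 3.53 with sgTetO and 3.40 with sgIL1RN1~3, the last just under the Bacillus limit. The other 13, IFNG included at 2.08, 2.08 and 1.95, were not above background on any array. The median difference of the ligand list between sgTetO and sgTetOmut was 0.02, against -0.01 for all genes.

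None of the 8 measured receptor and kinase genes was lower or higher by 2-fold. TYK2, a kinase of the type I receptor, read 6.69, 7.04 and 6.70 with sgTetOmut, sgTetO and sgIL1RN1~3. IFNAR1, a chain of the type I receptor, and IFNGR2, a chain of the interferon gamma receptor, differed by 0.22 and -0.25 between sgTetO and sgTetOmut. The median of the list was -0.05. Among 7 measured transcription factors of the response 1 was lower, IRF9, a DNA-binding part of the complex that acts on the ISRE, at 8.57 with sgTetOmut and 7.41 on both others. IRF1, which acts on GBP promoters, differed by -0.57 and -0.35 with sgTetO and sgIL1RN1~3, and IRF7 by -0.56 and -0.83, at background with sgIL1RN1~3. Of 7 feedback inhibitors, USP18, which blocks the type I receptor, was lower, at 8.60 with sgTetOmut and 7.21 on both others. SOCS3 differed by 0.14 between sgTetO and sgTetOmut, and PTPN6 by -0.33.

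The other targets of type I interferon were the list with the most genes lower. Of 35 measured, 28 were lower and 0 higher, and all 35 were highest with sgTetOmut. The list's median was -1.67 for sgTetO and -1.88 for sgIL1RN1~3. RSAD2, an antiviral enzyme, OAS2, a sensor of double-stranded RNA, and IFIT3 were 3.55, 3.40 and 2.58 log2 units lower with sgTetO. Beside these, MX2 with the Bacillus bound was at least 2.59 log2 units lower on both arrays, and GBP1 was 2.24 lower with sgTetO and at least 2.55 lower with sgIL1RN1~3. The bounds, for MX2 on both arrays and for GBP1 with sgIL1RN1~3, fix no exact place in the list. The GBP1 value with sgTetO, from the set 202270_at, is not a bound. As read, 7 of the 35 were further down than it and 28 less far down. MX1 lay near the other end, where 34 of the 35 were further down than MX1 on each array. Only ADAR, an RNA-editing enzyme, was less far down. MX1 was above the Bacillus limit by only 0.74, 0.13 and 0.16 log2 units with sgTetOmut, sgTetO and sgIL1RN1~3. The background leaves little room below MX1, and its part in the place of MX1 was not tested.

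Of 19 measured targets known for interferon gamma, the route that GBP1 and GBP2 are known for, 4 were lower and 0 higher. They were CXCL10, CXCL11, PSMB9, a subunit of the immunoproteasome, and TAP1, a peptide transporter. These 4 genes are known to answer to type I interferon as well. PSMB9 read 6.64, 4.17 and 4.45 with sgTetOmut, sgTetO and sgIL1RN1~3. Like GBP2, 9 genes of the list were not above background on any array. The list's median was -0.13 for sgTetO and -0.02 for sgIL1RN1~3.

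**Figure D4:**
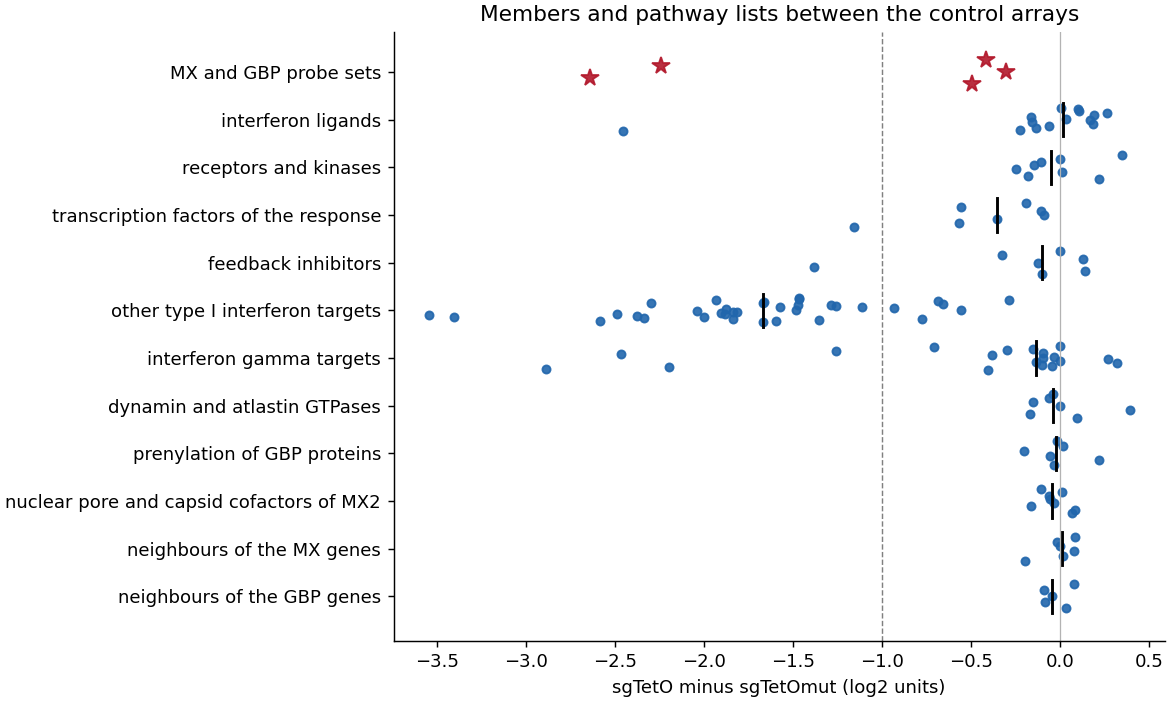
Log2 difference between sgTetO and sgTetOmut (horizontal axis) for the 5 MX and GBP probe sets (stars) and for each measured gene of 11 lists (points), with black bars at the list medians and a dashed line at -1. The members fall into 2 sets near -2.6 and -2.2 and 3 between -0.50 and -0.30, of which GBP2 and the second GBP1 set are at background throughout, and among the lists the targets of type I interferon alone have a median below -1 (-1.67). MX2, near -2.6, is at background with sgTetO and is plotted as read.

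The measured relatives and partners of the members were not 2-fold apart. The 7 measured dynamin genes and relatives, which share the fold of the MX proteins and serve membrane fission and fusion, had 0 genes lower and 0 higher, with a median of -0.04 for sgTetO. DNM3, DNM2 and OPA1, of which OPA1 shapes mitochondria, differed by 0.39, -0.17 and -0.15. The other GBP genes, GBP3 to GBP7, were not analysed here, nor were the atlastin genes ATL1, ATL2 and ATL3. The relatives that were read are thus those of the MX proteins only. The 6 measured genes of the prenylation list, which also holds the kinase PIM1, had 0 lower and 0 higher and a median of -0.02. PGGT1B, a subunit of the enzyme that attaches geranylgeranyl groups, differed by 0.22, ICMT by -0.20 and RCE1 by -0.06. The 8 measured genes of nuclear pores and of factors that bind the HIV-1 capsid, with which MX2 works, had 0 lower and 0 higher and a median of -0.05. NUP62, KPNB1 and RANBP2 differed by -0.16, -0.11 and 0.08.

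The genes around the members were examined because MX2 lies next to MX1, and GBP1 next to GBP2, in the RefSeq order of coding genes. Of 6 measured neighbours of the MX genes, 2 were above background, BACE2 and RIPK4, and 0 were lower. BACE2 differed by -0.20 with sgTetO and 0.37 with sgIL1RN1~3, and RIPK4 by 0.08 and 0.02. DSCAM was under the Bacillus limit, at 2.55, 2.63 and 2.63. Of the 5 measured neighbours of the GBP genes, also 0 were lower. LRRC8B, GTF2B, LRRC8D, KYAT3 and PKN2 differed by -0.09, -0.09, 0.08, -0.05 and 0.03 with sgTetO.

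Finally, the genes whose pattern was most like that of MX2 and GBP1 were sought among the 5982 other genes at or above the median level on sgTetOmut. Likeness was the straight-line distance between the pairs of differences from sgTetOmut, in log2 units and over the 3 arrays. The distances use readings at background, for MX2 on both lower arrays and for GBP1 on sgIL1RN1~3, so the order of the nearest genes is not settled. Nearest to MX2 as read were IFIT3 at a distance of 0.08, OAS1 at 0.31 and OASL at 0.34. Nearest to GBP1 as read were OAS1 at 0.18, IFIH1, a sensor of double-stranded RNA, at 0.20 and OASL at 0.36. MX2 and GBP1 are themselves under that median level. Among the 9303 other genes above the Bacillus limit on sgTetOmut, IFNB1 entered the nearest 3 of both members and OASL left them. IFNB1, at background with sgIL1RN1~3, lay at 0.21 from MX2 and 0.31 from GBP1. IFIT3 read 6.57, 3.99 and 3.94 with sgTetOmut, sgTetO and sgIL1RN1~3, and OAS1 read 8.82, 6.48 and 6.16.

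Blood and endothelial cells express MX and GBP genes, so markers of these cells were read as well. Of 10 measured markers, 5 were not above background on any array, namely PTPRC, CD3D, MS4A1, VWF and LYZ, and 0 of the 10 were lower or higher by 2-fold. CD14, HBB and CDH5 were above background on every array. PECAM1 and CD34 were above it with sgTetOmut only, where the limit is lower, and CD34 read 3.40 on each array. The log2 of their summed linear values was 6.63 with sgTetOmut, 6.54 with sgTetO and 6.54 with sgIL1RN1~3. PECAM1 and CD14 differed by -0.41 and -0.40 between sgTetO and sgTetOmut, and their part in the MX and GBP differences was not tested.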

How the data were processed

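Gene expression was measured in 3 HEK293T samples, 1 array per guide. The deposited table holds log2 values of Affymetrix probe sets, 1 column per array. The submitters' processing notes name affy without its role, and the version, background correction and summary method are not given in the sources at hand. That the scale is log2 was read from the values, which ran from 1.36 to 14.5. At every rank the 3 columns lay within 0.104 log2 units of their mean, so a difference is relative to the bulk of genes.

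Of 22277 probe sets, 19070 had 1 symbol in the platform annotation, 1043 had several and 2164 were unnamed. A gene with several sets was represented by the one whose mean across arrays was highest. With 1 array per group no test was possible, and the number of arrays limits the precision. Differences were counted at 1 log2 unit. The members, the lists and the Bacillus limit were chosen with earlier results of these data known. Genes named were all member sets, up to 3 genes per list furthest apart between sgTetO and sgTetOmut (all of a list of 5), and the 3 nearest genes for each member past 1 log2 unit; others are named as they fell past the limit. As alternatives, the columns were rescaled by quantiles and by cyclic loess (limma 3.58.1, R 4.3.3), and results were recomputed with 16 added to linear values, and with other probe set choices, minimum levels and limits. Other steps used Python 3.11.15, numpy 2.4.6 and pandas 2.3.3. Simulated data, with known differences given to genes above the median, were used to test the count with the median as minimum level. The rules without that level, by which MX2 and GBP1 were counted, were not simulated.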

Additional observations from a re-analysis of the deposited data

How the results depend on the processing

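No paired analysis was possible because each group held 1 array. The 12 differences of the 4 members were recomputed under quantile scaling, cyclic loess scaling, 16 added to the linear values, the mean of all sets of a gene and the set highest on sgTetO, and all 60 values stayed on the same side of 1 log2 unit. MX1, MX2 and GBP2 have 1 set each, so the last 2 settings could not change them. The GBP1 set highest on sgTetO is its main set, so that setting could not change GBP1 either. For sgTetO minus sgTetOmut, MX2 ran from -2.64 to -1.61, GBP1 from -2.24 to -1.27 and MX1 from -0.50 to -0.23. For sgIL1RN1~3 minus sgTetOmut, MX2 ran from -2.73 to -1.62 and GBP1 from -2.85 to -1.39. The count of members at least 2-fold lower on both other arrays was 0 with the median as minimum level, 2 with no minimum level, 2 with values bounded at the Bacillus limit (added after the data were seen), and 1 with the mean of all sets, where the median level is itself lower. The count over all genes was 35, and 17 with the 75th percentile as minimum level and 20 at a limit of 3-fold, both of them stricter by construction. Signal over background limits MX1, GBP2 and the second GBP1 set, which have little or no room below them.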
